A study of Homo sapiens with 12 samples.

Results

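The comparison described here was between the 2 upper doses of an aconite extract in SW1783 cells. It used 6 of the 12 RNA-seq libraries of the study, 3 that received the high dose and 3 that received the medium dose, chosen by their dose labels alone, and it took in every gene of the count table. SW1783 is an established human astrocytoma cell line. The agent was a water extract of the root of Aconitum carmichaeli Debeaux (ACD), given for 24 h, at 500 µg/mL in the high dose group and at 100 µg/mL in the medium dose group, so the upper dose was 5 times the lower. The other 6 libraries, 3 with vehicle (PBS with 2% DMSO) and 3 with the low dose of 20 µg/mL, entered the model to estimate the spread and to place a gene's medium dose level, and the low dose libraries also entered the comparison of the low-to-medium step with the medium-to-high step. The extract is named as in the sample titles and treatment labels, because the treatment protocol printed with the samples describes Poria cocos. All groups used the same cell line, and the labels do not say whether the 3 libraries of a group came from separate cultures, so the p-values measure the spread between these libraries only.

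Cells that meet a chemical stress slow protein synthesis and switch on a set of transcription factors, led by ATF4, that raise amino acid supply and folding capacity. This programme is the integrated stress response, and its endoplasmic reticulum (ER) branch is the unfolded protein response. Astrocytes and the tumours that derive from them can also respond to injury by releasing chemokines and cytokines through NF-kB, and cells that stop dividing lower the genes of mitosis. The genes are ordered below by these roles. 

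The 6 libraries held between 18863863 and 24200576 counts, so depth was similar in both groups. A principal component analysis of the 6 placed 89.0% of the variance on a first component, on which medium dose libraries scored from -11.7 to -10.8 and high dose libraries from 10.7 to 11.7. Of 10 astrocyte, progenitor and glioma markers with enough counts to test, VIM, CD44 and EGFR were abundant at both doses (VIM 103750 ± 2798 and 108048 ± 1073 normalised counts, mean ± SD, n = 3), whereas AQP4 had 0 counts in every library and GFAP did not exceed 4.64 normalised counts in any of the 6. Transcripts of 8 intestinal epithelial markers together took at most 2.65e-05% of counts. Of the defining markers of mature astrocytes, GFAP and AQP4 were thus at or near 0. Genes on the other strand overlapped 24.6% of the exons of VIM.

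In all, 1679 of 16467 tested genes (10.2%) differed between the doses, of which 755 (4.58%) rose and 924 (5.61%) fell at the high dose. A gene was called when its DESeq2 adjusted p was under 0.05 and its fold change exceeded 1.5. Differences beyond 2-fold were called in 270 genes that were higher and 372 that were lower, and differences beyond 4-fold in 59 and 56. The 3 high dose libraries lay wholly above or wholly below the 3 medium dose libraries in 1666 of the 1679 called genes (99.2%) and in 56.7% of all tested genes. Without the fold threshold 6738 genes passed, 3477 higher and 3261 lower. In bulk RNA, fewer cells of one kind and less of a transcript per cell cannot be told apart.

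**Figure D1:**
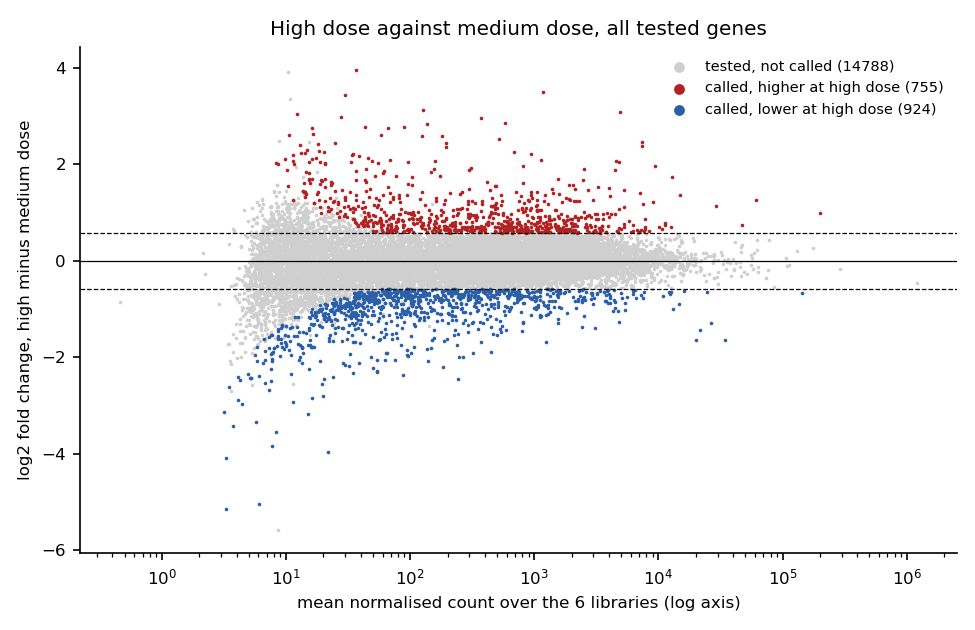
Log2 fold change of the high against the medium dose (vertical axis) by mean normalised count over the 6 libraries (horizontal log axis) for each tested gene. Red points are the 755 genes called higher, blue points the 924 called lower, grey points were not called, and dashed lines mark 1.5-fold. Calls are found at all levels of expression, and blue points outnumber red ones at low counts.

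The kind of gene differed between the 2 directions. Among 13338 protein-coding genes, 659 (4.94%) were higher and 716 (5.37%) lower, whereas among 1934 long non-coding RNA genes 53 (2.74%) were higher and 147 (7.60%) lower, with a median log2 fold change of -0.11. In the tertile of genes with the lowest mean count, 240 of 5489 (4.37%) were higher and 497 (9.05%) lower, against 252 (4.59%) and 141 (2.57%) in the tertile with the highest mean count. The part of count level in the shares of non-coding genes was not tested. In protein-coding genes the shares called differed little by exon length, at 5.40%, 5.24% and 4.18% higher and 5.29%, 5.55% and 5.26% lower from the short to the long tertile.

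The 12 largest rises included CXCL8, CXCL3 and GDF15. They were taken among called genes with a mean of at least 100 normalised counts and no overlap between high and medium dose libraries. Separation of the doses was thus a condition of the selection. Normalised counts of CXCL8 (ENSG00000169429, chr4:73740519-73743716, plus strand, GRCh38), a chemokine that attracts neutrophils, were 177, 219 and 177 at the medium dose and 2200, 2283 and 2022 after the high dose (log2 fold change 3.50 with SE 0.099, DESeq2 adjusted p 6.54e-271). All 3 high dose values lay above all 3 medium dose values by 11.3-fold on average. CXCL3 (ENSG00000163734, chr4:74036589-74038807, minus strand), a related chemokine, read 22, 28.9 and 27.3 at the medium dose and 222, 239 and 226 after the high dose (log2 fold change 3.13 with SE 0.247, DESeq2 adjusted p 5.15e-35). GDF15 (ENSG00000130513, chr19:18374731-18389176, plus strand), a cytokine released by stressed cells, read 983, 1025 and 1103 at the medium dose and 8517, 8922 and 8947 after the high dose (log2 fold change 3.08 with SE 0.0483, DESeq2 adjusted p below the range the software can write). The groups were widely apart for all 3, and the libraries within a dose were close to each other.

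NGFR (ENSG00000064300, chr17:49495293-49515008, plus strand), the low-affinity neurotrophin receptor, read 84.6, 82.9 and 89.5 at the medium dose and 614, 723 and 653 after the high dose (log2 fold change 2.95 with SE 0.145, DESeq2 adjusted p 3.15e-90). ATF3 (ENSG00000162772, chr1:212565334-212620777, plus strand), a stress-induced transcription factor, read 121, 133 and 165 at the medium dose and 974, 1064 and 1005 after the high dose (log2 fold change 2.86 with SE 0.12, DESeq2 adjusted p 3.74e-122). CXCL2 (ENSG00000081041, chr4:74097040-74099196, minus strand) read 24.3, 38.2 and 36.7 at the medium dose and 219, 254 and 245 after the high dose (log2 fold change 2.84 with SE 0.237, DESeq2 adjusted p 1.04e-31). In these 3 genes no high dose library came near a medium dose one. IER3, an early response gene that modulates survival, rose by 6.01-fold, IL1A, the interleukin 1 alpha gene, by 6-fold, and IL6 by 5.79-fold. PLIN2 (ENSG00000147872, chr9:19108375-19149290, minus strand), which coats lipid droplets, read 2245, 2210 and 2280 at the medium dose and 12000, 13002 and 12178 after the high dose (log2 fold change 2.47 with SE 0.0387, DESeq2 adjusted p below the range the software can write). KCP, a secreted modulator of BMP signalling, rose by 5.45-fold. HMOX1 (ENSG00000100292, chr22:35380361-35394214, plus strand), the haem-degrading enzyme haem oxygenase 1, read 2241, 2478 and 2407 at the medium dose and 11976, 11990 and 13065 after the high dose (log2 fold change 2.38 with SE 0.0426, DESeq2 adjusted p below the range the software can write). Overlap of exons with genes on the opposite strand covered 38.9% of IER3, 27.2% of NGFR and 16.4% of KCP, and the sources used here do not state whether reads were counted by strand.

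Among called genes with the same minimum mean and the same lack of overlap, the largest falls included CYP24A1, RAB7B, TGFB3 and ID2. CYP24A1 (ENSG00000019186, chr20:54153446-54173986, minus strand), the hydroxylase that inactivates vitamin D hormone, read 384, 435 and 405 at the medium dose and 71.8, 70.3 and 80.4 after the high dose (log2 fold change -2.46 with SE 0.134, DESeq2 adjusted p 4.55e-73), a 5.5-fold difference. RAB7B (ENSG00000276600, chr1:205976740-206003461, minus strand), a small GTPase of endosomal traffic, read 350, 291 and 263 at the medium dose and 70.6, 64.9 and 59.9 after the high dose (log2 fold change -2.21 with SE 0.147, DESeq2 adjusted p 3.70e-49). TGFB3 (ENSG00000119699, chr14:75958097-75983011, minus strand), a transforming growth factor, read 228, 222 and 224 at the medium dose and 60.2, 47.7 and 53.3 after the high dose (log2 fold change -2.07 with SE 0.153, DESeq2 adjusted p 2.56e-40). ID2 (ENSG00000115738, chr2:8678845-8684461, plus strand), an inhibitor of differentiation factors that BMP signals induce, read 413, 410 and 449 at the medium dose and 107, 106 and 105 after the high dose (4.01-fold lower, SE of the log2 fold change 0.115, DESeq2 adjusted p 1.73e-66). The 3 high dose libraries of ID2 differed by only 2 normalised counts.

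ATOH8, a helix-loop-helix factor, read 501, 480 and 526 at the medium dose and 139, 127 and 137 after the high dose (log2 fold change -1.90 with SE 0.107, DESeq2 adjusted p 9.85e-69). DIO2 (ENSG00000211448, chr14:80197526-80387757, minus strand), which activates thyroid hormone, read 755, 681 and 678 at the medium dose and 222, 177 and 175 after the high dose (log2 fold change -1.89 with SE 0.0911, DESeq2 adjusted p 2.25e-93). In both genes the lowest medium dose library lay well above the highest high dose library. RNF112, ARSI, ST6GALNAC5, STON2 and LYPD1 were also among the 12 largest falls, by 3.74-fold, 3.56-fold, 3.49-fold, 3.44-fold and 3.36-fold. STON2, an endocytic adaptor, read 159, 180 and 163 at the medium dose and 54.4, 58.6 and 33.7 after the high dose. Opposite-strand genes overlapped 29.7% of the exons of LYPD1 and 11.3% of those of RNF112.

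**Figure D2:**
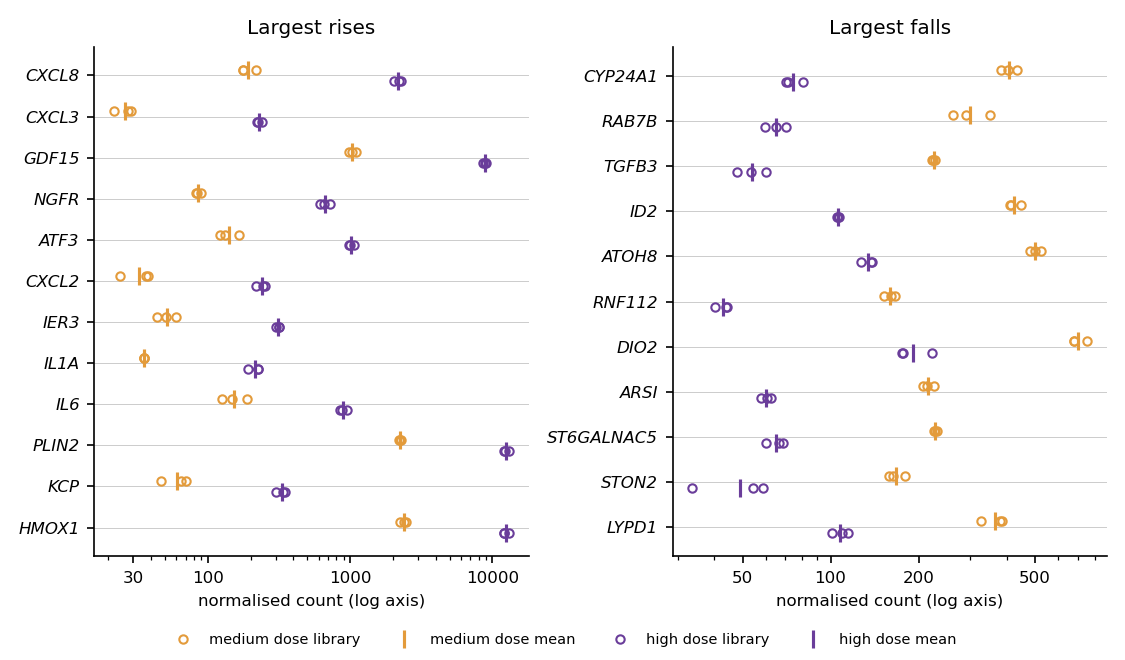
Normalised counts (horizontal log axes) of the 12 genes with the largest rises (left) and of genes among the 12 largest falls (right). All were taken from called genes with a mean of at least 100 and no overlap between the doses. Each open circle is 1 library and each vertical tick a mean of 3, with the medium dose in orange and the high dose in purple. The libraries of the 2 doses do not overlap in any gene shown, because this was a condition of the selection.

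Chemokine and cytokine genes were the list with the highest share of calls. Of 27 listed genes 19 could be tested, and of these 13 rose and 1 fell (73.7% called, beside 10.2% of all tested genes). The median log2 fold change was 1.70 against -0.00686 for all tested genes. The list was chosen with earlier results of these data known. A gene scarce at the medium dose can pass the count filter, a mean of 5.77, through its high dose libraries. The count and the median can therefore lean towards rises. CSF2, the gene of the colony-stimulating factor GM-CSF, read 10.4, 2.8 and 0.942 at the medium dose and 59, 85.6 and 62.7 after the high dose (log2 fold change 3.96 with SE 0.568, DESeq2 adjusted p 3.31e-11). CXCL1 read 4.64, 3.73 and 6.6 at the medium dose and 53.3, 52.3 and 58 after the high dose (log2 fold change 3.45 with SE 0.515, DESeq2 adjusted p 2.12e-10). Both were near the limit of detection at the medium dose and were counted clearly at the high dose. The first medium dose library of CSF2 stood above the other 2, at a level still well under all high dose libraries. IL6 read 189, 148 and 125 at the medium dose and 846, 944 and 871 after the high dose (log2 fold change 2.53 with SE 0.136, DESeq2 adjusted p 8.96e-76), and IL1A 35.9, 35.4 and 35.8 at the medium dose and 191, 226 and 224 after the high dose (log2 fold change 2.58 with SE 0.24, DESeq2 adjusted p 9.56e-26). CCL2, which attracts monocytes, was not called and read 274, 239 and 247 at the medium dose and 222, 195 and 203 after the high dose (log2 fold change -0.29 with SE 0.127, DESeq2 adjusted p 0.0522). The single fall was in IL11, an IL6-family cytokine named here after its values were seen, at 1554, 1357 and 1249 at the medium dose and 901, 816 and 793 after the high dose (log2 fold change -0.73 with SE 0.0732, DESeq2 adjusted p 4.53e-22). CXCL1, CXCL2 and CXCL3 are near-identical neighbours on chromosome 4, and the counting could split their reads, so the value of each one is less certain than that of the group.

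NF-kB is the main known regulator of these chemokine genes, and its DNA-binding motif is known in their promoters. Promoters from 250 bases before to 50 after the start site, taken from RefSeq on GRCh38.p14, were found for 11573 tested genes. They were searched on both strands for the kB consensus, a search added after the data were seen. It was in 12.8% of all these promoters, in 15.4% of those of genes called higher and in 11.8% of those of genes called lower. It was in 6 of 13 chemokine and cytokine promoters, those of CXCL1, CXCL2, CXCL3, CXCL5, IL6 and IL32. A shorter pattern, the letters GGGNNNTCC on either strand, which can differ from the consensus, was in 25.1%, 28.3% and 23.2% of the same promoter groups. This pattern was in 4 of the 13 chemokine and cytokine promoters (30.8%), those of CXCL1, CXCL2, CXCL3 and CSF2. The stretches of the 3 CXCL promoters around the consensus are shown to let their likeness be seen, 5′ to 3′ on the strand of the gene, with the matches in capitals. They lie at chr4:73869279-73869358 (plus strand), chr4:74099229-74099308 (minus strand) and chr4:74038724-74038803 (minus strand).
CXCL1: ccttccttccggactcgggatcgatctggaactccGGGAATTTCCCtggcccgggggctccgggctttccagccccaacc
CXCL2: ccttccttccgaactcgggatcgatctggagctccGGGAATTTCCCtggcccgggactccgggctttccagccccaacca
CXCL3: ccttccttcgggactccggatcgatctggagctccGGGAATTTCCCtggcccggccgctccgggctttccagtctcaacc
Each run of capitals holds 2 overlapping matches, one on each strand, and no other motif searched overlapped it. A match describes the letters and not a site in use.

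NF-kB subunits and their feedback inhibitors were 7 higher and 2 lower of 19 tested. That made 47.4% called, beside 10.2% of all tested genes, and the median was 0.50. NFKBIZ, an inducible nuclear regulator of NF-kB, read 134, 137 and 148 at the medium dose and 362, 386 and 348 after the high dose (log2 fold change 1.38 with SE 0.146, DESeq2 adjusted p 5.24e-20). BIRC3, an inhibitor of apoptosis, read 248, 215 and 220 at the medium dose and 544, 534 and 531 after the high dose (log2 fold change 1.24 with SE 0.102, DESeq2 adjusted p 3.46e-32), and the subunits RELB and NFKB2 rose by 1.08 (SE 0.0759) and 1.06 (SE 0.0768) on the log2 scale. NFKBIA, the classical inhibitor, read 771, 678 and 714 at the medium dose and 1033, 1059 and 1044 after the high dose, and its log2 fold change of 0.54 (SE 0.0647) stayed just under the 1.5-fold threshold. Of 12 prostaglandin genes, PTGS2, which encodes cyclooxygenase 2, rose from 1581, 1551 and 1430 to 2644, 2564 and 2356 (log2 fold change 0.73 with SE 0.0563, DESeq2 adjusted p 7.86e-37), while PTGER2, a prostaglandin receptor, and HPGD, which degrades prostaglandins, had log2 fold changes of -0.64 and -1.57 and were called lower. Without high replicate 2 the value of PTGER2 was -0.57, and without high replicate 1 that of HPGD was -1.34 at an adjusted p of 0.0515 (DESeq2), so neither call held.

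Of 30 interferon response genes 6 rose (20.0%) and none fell at the DESeq2 threshold used, beside 4.58% and 5.61% of all tested genes. The list's median was -0.01. RSAD2, IFIT2, IRF1 and IRF7 rose by 1.57 (SE 0.464), 1.24 (SE 0.126), 1.24 (SE 0.0676) and 0.92 (SE 0.157) in log2 fold change. IFIT2 read 174, 172 and 181 at the medium dose and 357, 441 and 445 after the high dose, and IRF1 539, 522 and 550 at the medium dose and 1239, 1297 and 1274 after the high dose with 22.9% of its exon bases shared with the opposite strand. Among 20 genes of MHC class I antigen presentation 0 were called by DESeq2 or edgeR, and 13 had an unadjusted DESeq2 p under 0.05.

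Immediate early factors and the feedback genes of MAP kinase signalling were called higher more often than lower. A list of AP-1, early growth response and other immediate early genes had 22 tested members. Of these 8 were higher and 1 lower (40.9% called, beside 10.2% of all tested genes), with a median of 0.42. The members described below, IER3, KLF4 and KLF6, are not themselves AP-1 or early growth response factors. Of 19 phosphatase and Sprouty genes 9 were higher and 1 lower (52.6% called), with a median of 0.55. IER3 read 51, 59.6 and 44.3 at the medium dose and 316, 317 and 299 after the high dose (log2 fold change 2.59 with SE 0.192, DESeq2 adjusted p 1.08e-39). KLF4, a zinc finger factor, read 252, 306 and 339 at the medium dose and 741, 796 and 795 after the high dose (log2 fold change 1.37 with SE 0.11, DESeq2 adjusted p 1.69e-34). Its relative KLF6 read 1783, 1815 and 1674 at the medium dose and 4194, 4350 and 4147 after the high dose (log2 fold change 1.27 with SE 0.0447, DESeq2 adjusted p 4.05e-174). Those 3 genes had no high dose library within reach of the medium dose ones. DUSP5, a phosphatase that acts on nuclear ERK, read 444, 431 and 433 at the medium dose and 1831, 1922 and 1797 after the high dose (log2 fold change 2.09 with SE 0.0787, DESeq2 adjusted p 2.90e-152). PHLDA1, an early gene of growth signalling, read 6052, 5863 and 5964 at the medium dose and 20562, 19880 and 19488 after the high dose (log2 fold change 1.75 with SE 0.0417, DESeq2 adjusted p below the range the software can write). SPRY2 and DUSP1, 2 more feedback inhibitors, rose by 1.36 (SE 0.0701) and 1.22 (SE 0.0614). 

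Several factors of the integrated stress response rose further between the medium and the high dose, and others did not. Of 22 tested factors and partners 9 were higher and 0 lower by the DESeq2 call (40.9%, beside 10.2% of all tested genes). Their median was 0.34. DDIT3, which encodes the death-promoting factor CHOP, read 1977, 1820 and 1760 at the medium dose and 7811, 8145 and 7141 after the high dose (log2 fold change 2.06 with SE 0.0564, DESeq2 adjusted p 2.53e-288). PPP1R15A, the phosphatase subunit that ends the response, read 1812, 1938 and 1970 at the medium dose and 6885, 7026 and 7104 after the high dose (log2 fold change 1.88 with SE 0.0438, DESeq2 adjusted p below the range the software can write), and TRIB3, a pseudokinase that restrains ATF4, read 2695, 2853 and 2833 at the medium dose and 7763, 7770 and 7696 after the high dose (log2 fold change 1.47 with SE 0.0402, DESeq2 adjusted p 8.39e-290). ATF4 itself read 5380, 5590 and 5744 at the medium dose and 8623, 8070 and 8446 after the high dose, and its log2 fold change of 0.59 (SE 0.0343) passed the 1.5-fold threshold narrowly. It was 0.57 without high replicate 1, 0.58 without high replicate 3, 0.56 without medium replicate 1 and 0.58 both with edgeR and when the 6 compared libraries were fitted alone, and in each case no longer passed. CHAC1, a glutathione-degrading enzyme that ATF4 and CHOP induce, was not called, at 617, 578 and 638 at the medium dose and 636, 605 and 679 after the high dose (log2 fold change 0.07 with SE 0.095, DESeq2 adjusted p 0.625). Its dose libraries overlapped, although its means with vehicle and at the low dose were only 84 and 135. DDIT3 shared 31.6% of its exon bases with the opposite strand.

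The CARE motif, the letters TGATGNAA on either strand, is the known target of ATF4 and its partners. It was in 1.74% of the 11573 promoters, in 3.18% of those of genes called higher and in 2.35% of those of genes called lower, and in 3 of 19 promoters of the integrated stress response list. The stretches of ATF3, which rose at this dose step, and CHAC1, which was not called, are shown with the match in capitals, at chr1:212565180-212565259 and chr15:40953226-40953305, both on the plus strand.
ATF3: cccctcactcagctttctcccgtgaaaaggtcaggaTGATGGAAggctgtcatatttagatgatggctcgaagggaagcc
CHAC1: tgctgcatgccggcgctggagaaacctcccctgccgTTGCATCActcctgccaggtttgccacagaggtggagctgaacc
Each promoter held 1 match, that of CHAC1 on the opposite strand. The match of ATF3 began 191 bases and that of CHAC1 209 bases before the start site. No other motif searched overlapped these matches.

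Of 17 genes of serine, one-carbon, asparagine and proline synthesis 6 were higher and 0 lower by the DESeq2 call. CTH, which makes cysteine, read 320, 323 and 341 at the medium dose and 780, 761 and 779 after the high dose (log2 fold change 1.24 with SE 0.0949, DESeq2 adjusted p 3.82e-37), and ASNS, asparagine synthetase, read 4139, 4227 and 4324 at the medium dose and 7288, 7527 and 7590 after the high dose (log2 fold change 0.82 with SE 0.0339, DESeq2 adjusted p 4.31e-127). GOT1 and CBS rose by 0.81 (SE 0.0567) and 0.79 (SE 0.105). Of 16 amino acid transporters 3 rose, among them SLC7A11, the cystine importer, at 5486, 5561 and 5544 at the medium dose and 10355, 10065 and 9952 after the high dose (log2 fold change 0.87 with SE 0.0307, DESeq2 adjusted p 3.75e-174), and its partner chain SLC3A2 by 0.64 (SE 0.0378). The glutamate transporter SLC1A3 fell and is described with the cell type markers. The shares called were 35.3% of the synthesis list and 25.0% of the transporters, beside 10.2% of all tested genes. Of 20 cytosolic aminoacyl-tRNA synthetases only 2 were called (10.0%, near the 10.2% of all tested genes). These were GARS1, which rose by 0.79 (SE 0.0348), and AARS1, which rose by 0.70 (SE 0.0257). The synthetase list had 15 positive and 5 negative log2 fold changes, with a median of 0.23.

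Chaperones of the ER and of the cytosol were called in opposite directions. Of 26 ER folding and degradation genes 9 were higher and 0 lower by the DESeq2 call, with a median of 0.38. Of 19 genes on the cytosolic heat shock list 0 were higher and 7 lower, with a median of -0.20. That list also holds HSPD1 and HSPE1, which encode mitochondrial chaperones. The shares called were 34.6% for the ER list and 36.8% for the heat shock list, beside 10.2% of all tested genes. HSPA5, the main ER chaperone, read 135401, 135585 and 131660 at the medium dose and 269728, 272080 and 257391 after the high dose (log2 fold change 0.99 with SE 0.0221, DESeq2 adjusted p below the range the software can write). HERPUD1, a factor of ER-associated degradation, read 3883, 4016 and 3866 at the medium dose and 10324, 10461 and 10216 after the high dose (log2 fold change 1.40 with SE 0.035, DESeq2 adjusted p below the range the software can write). DNAJB9 and ERN1, a co-chaperone and the stress sensor IRE1, rose by 1.28 (SE 0.0546) and 1.24 (SE 0.0654). DERL3 was also called higher, but 77% of its exon bases lay opposite another gene. In the cytosol, HSPA1A, the inducible HSP70, read 1829, 1871 and 1978 at the medium dose and 1005, 942 and 999 after the high dose (log2 fold change -0.95 with SE 0.0552, DESeq2 adjusted p 2.21e-64), and HSPA8, the constitutive HSP70, read 18478, 18719 and 19689 at the medium dose and 10242, 9953 and 10533 after the high dose (log2 fold change -0.89 with SE 0.0363, DESeq2 adjusted p 2.84e-130). HSPB1, a small heat shock protein, read 5542, 5689 and 6000 at the medium dose and 3151, 3104 and 3310 after the high dose (log2 fold change -0.85 with SE 0.0542, DESeq2 adjusted p 1.54e-53), and HSP90AA1 was not called (-0.24). All 7 that fell had been within 1.5-fold of vehicle at the medium dose by an equivalence test. So had 41.5% of all called genes and 65.8% of all tested genes. HSPA1A and HSPA1B (-0.76) are near-identical copies whose reads can be divided between them, and 11.4% of HSPA8 lay opposite another gene.

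NRF2 targets, which defend against oxidants, were 10 higher and 0 lower of 29 tested by the DESeq2 call. That made 34.5% called, beside 10.2% of all tested genes, and the median was 0.33. After HMOX1, the largest rises were in MAFF, a small partner of NRF2, at 519, 494 and 532 at the medium dose and 1348, 1409 and 1388 after the high dose (log2 fold change 1.42 with SE 0.077, DESeq2 adjusted p 1.99e-74), and in GCLC, the rate-limiting enzyme of glutathione synthesis, at 1044, 1001 and 1091 at the medium dose and 2546, 2537 and 2649 after the high dose (log2 fold change 1.30 with SE 0.0556, DESeq2 adjusted p 7.78e-119). FTH1, the ferritin heavy chain, rose by 1.26 (SE 0.0914), with 63.2% of its exon bases opposite another gene and many pseudogene copies known. NQO1, a standard NRF2 target, did not pass 1.5-fold at a log2 fold change of 0.38 (SE 0.0334), with 19.4% of its exon bases opposite another gene. Of 8 genes of metal handling 1 rose (12.5%, beside 10.2% of all tested genes called). It was the zinc exporter SLC30A2, from 2.32, 1.86 and 3.77 to 19.7, 21.6 and 24.3. Its medium dose values lay under the filter mean of 5.77, which such a gene can pass through its high dose libraries. The metallothioneins MT1X and MT2A were not called (-0.13 and 0.32). In autophagy and lysosome genes 6 of 31 rose, led by RRAGD, a GTPase of nutrient sensing, at 17.4, 17.7 and 14.1 at the medium dose and 88, 111 and 100 after the high dose (log2 fold change 2.61 with SE 0.335, DESeq2 adjusted p 8.18e-14), and by the cargo receptor SQSTM1, by 1.14 (SE 0.0302). WIPI1 and MAP1LC3B, which build autophagosomes, rose by 1.05 (SE 0.062) and 0.97 (SE 0.0419). The 6 autophagy and lysosome genes were 19.4% of those tested, beside 4.58% called higher over all tested genes. SQSTM1 and WIPI1 shared 22.4% and 28.1% of their exon bases with the opposite strand.

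**Figure D3:**
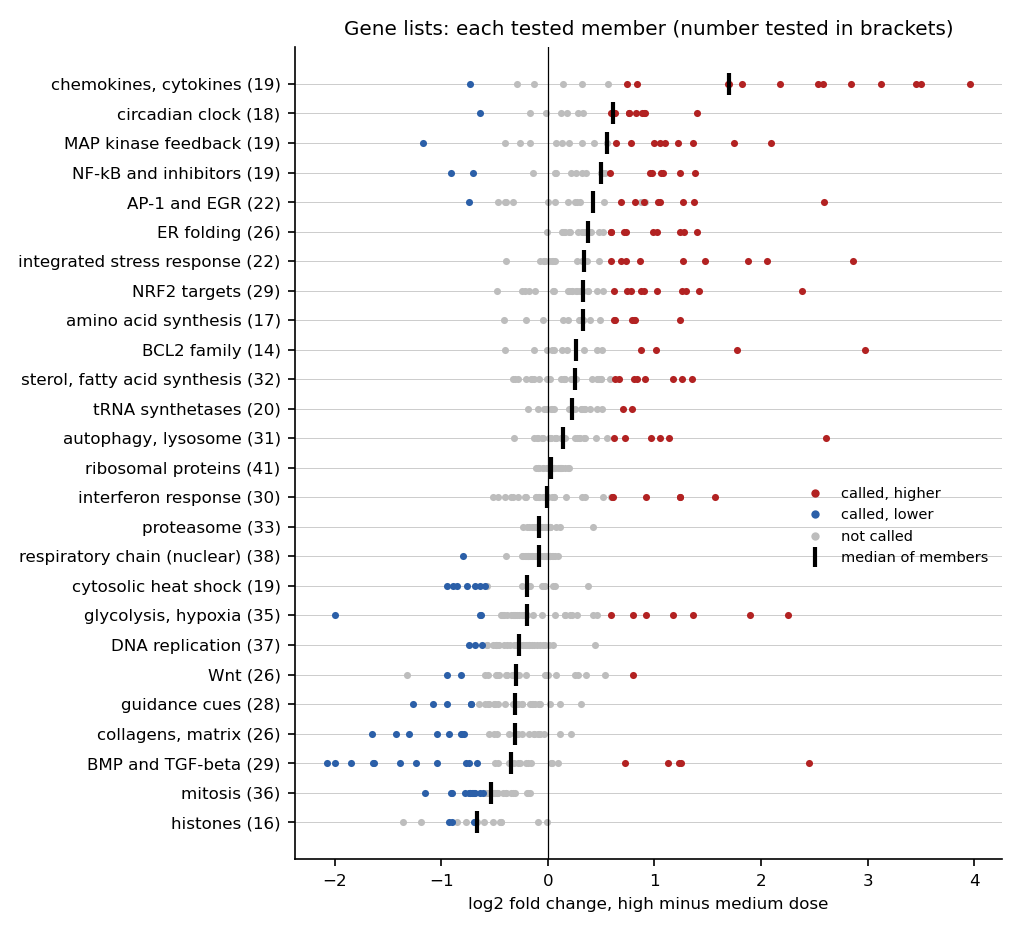
Log2 fold change of the high against the medium dose (horizontal axis) for each tested member of the gene lists named on the vertical axis, ordered by list median (black tick). Red and blue points were called higher and lower and grey points were not called. Chemokines and cytokines stand at the top with a median of 1.70 and histones at the bottom with -0.67, while ribosomal protein and proteasome genes cluster at 0.

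Where DESeq2 called 0 members of a list in a direction above or further on, edgeR called 0 as well for the stress response, amino acid synthesis, ER folding, heat shock, NRF2, sterol, BCL2, collagen, guidance and interferon lists. At an unadjusted DESeq2 p under 0.05 and any fold, 1 stress response, 2 amino acid synthesis, 0 ER folding, 3 NRF2, 6 sterol, 1 BCL2 and 4 interferon genes were lower, and 1 heat shock, 2 collagen and 2 guidance genes were higher.

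Of 32 sterol and fatty acid synthesis genes 8 were higher and 0 lower by the DESeq2 call (25.0%, beside 10.2% of all tested genes). At the medium dose 7 of the 8 had been within 1.5-fold of vehicle, beside 41.5% of all called genes and 65.8% of all tested genes. The median of the list was 0.25, whereas its median for medium against vehicle was -0.17. INSIG1, a sterol sensor, read 2199, 2319 and 2320 at the medium dose and 5696, 5776 and 5917 after the high dose (log2 fold change 1.35 with SE 0.041, DESeq2 adjusted p 1.83e-233), and its vehicle mean was 2651. SCD, a fatty acid desaturase, read 4489, 4710 and 4637 at the medium dose and 10146, 10315 and 10658 after the high dose (log2 fold change 1.17 with SE 0.0307, DESeq2 adjusted p below the range the software can write), and MSMO1, a sterol oxidase, rose by 0.91 (SE 0.0598). ABCA1, which exports cholesterol, rose at the same time, at 1797, 1688 and 1803 at the medium dose and 7468, 7516 and 7274 after the high dose (log2 fold change 2.07 with SE 0.039, DESeq2 adjusted p below the range the software can write). ABCG1, a second cholesterol exporter named after its values were seen, read 2.32, 15.8 and 14.1 at the medium dose and 70.6, 80.2 and 76.7 after the high dose (log2 fold change 2.78 with SE 0.431, DESeq2 adjusted p 1.01e-09).

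Glucose and hypoxia genes were mixed, with 7 higher and 3 lower of 35 tested. That made 28.6% called, beside 10.2% of all tested genes, and the median was -0.20. HKDC1, a hexokinase, read 225, 253 and 240 at the medium dose and 1062, 1190 and 1175 after the high dose (log2 fold change 2.25 with SE 0.101, DESeq2 adjusted p 4.36e-107), and NDRG1, a stress- and hypoxia-responsive gene, 1040, 1056 and 1098 at the medium dose and 3811, 4012 and 4070 after the high dose (log2 fold change 1.90 with SE 0.0488, DESeq2 adjusted p below the range the software can write). EGLN3, the oxygen-sensing prolyl hydroxylase that hypoxia normally induces, fell, at 75.3, 80.1 and 76.3 at the medium dose and 17.4, 21.6 and 18.7 after the high dose (4-fold lower, SE of the log2 fold change 0.252, DESeq2 adjusted p 3.13e-14). VEGFA, the vascular growth factor, read 8406, 8376 and 8787 at the medium dose and 11885, 11466 and 11865 after the high dose and did not pass 1.5-fold, at a log2 fold change of 0.46 (SE 0.0336). NAMPT, the rate-limiting enzyme of NAD salvage, was picked after its values were seen and read 7963, 8528 and 8391 at the medium dose and 20630, 21939 and 21870 after the high dose (log2 fold change 1.37 with SE 0.0313, DESeq2 adjusted p below the range the software can write). Its processed pseudogene NAMPTP1 was called too, at 1.55 (SE 0.115), and the 2 can exchange reads.

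Core clock genes had 11 members higher and 1 lower of 18 tested (66.7%, beside 10.2% of all tested genes). Their median was 0.61. NR1D1, the repressor REV-ERB alpha, read 840, 851 and 939 at the medium dose and 2248, 2290 and 2385 after the high dose (log2 fold change 1.40 with SE 0.0589, DESeq2 adjusted p 7.84e-122). NPAS2, DBP and CIART rose by 0.91 (SE 0.107), 0.90 (SE 0.213) and 0.88 (SE 0.117), and BMAL1, the central activator, read 174, 157 and 171 at the medium dose and 247, 256 and 253 after the high dose (log2 fold change 0.60 with SE 0.134, DESeq2 adjusted p 4.17e-05), a call that was lost without high replicate 2 (0.58) or medium replicate 2 (0.55). Of the 12 called members, 8 had been within 1.5-fold of vehicle at the medium dose, beside 41.5% of all called genes and 65.8% of all tested genes. Each group was sampled at 1 time point, so phase cannot be read from these values. NR1D1 and DBP shared 18% and 10.2% of their exon bases with the opposite strand.

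Among cell cycle genes the arrest gene CDKN1A rose and 13 mitotic genes fell. CDKN1A, which encodes the CDK inhibitor p21, read 376, 411 and 402 at the medium dose and 1175, 1230 and 1244 after the high dose (log2 fold change 1.62 with SE 0.0747, DESeq2 adjusted p 1.21e-101), whereas its vehicle mean was 449. TNFRSF10B, the death receptor DR5, read 2048, 2075 and 2060 at the medium dose and 5904, 6035 and 5725 after the high dose (log2 fold change 1.51 with SE 0.0381, DESeq2 adjusted p below the range the software can write). GADD45A, a DNA damage response gene, rose by 1.47 (SE 0.0521) on the log2 scale. Among 14 members of the BCL2 family 4 rose and 0 fell by the DESeq2 call (28.6%, beside 10.2% of all tested genes). They were the BH3-only death promoters HRK, BBC3, BCL2L11 and PMAIP1, at log2 fold changes of 2.98 (SE 0.524), 1.77 (SE 0.323), 1.01 (SE 0.14) and 0.87 (SE 0.0533). For BCL2L11 the overlap with opposite-strand exons was 10.8%. HRK was close to its detection limit at the medium dose, at 4.64, 9.32 and 4.71 against 49.8, 51.4 and 47.7.

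All 36 mitotic genes had negative log2 fold changes, and 13 of them (36.1%) were called, beside 5.61% called lower over all tested genes. The list's median was -0.53. KIF20A, a kinesin of cytokinesis, read 1576, 1568 and 1526 at the medium dose and 734, 677 and 698 after the high dose (log2 fold change -1.15 with SE 0.0526, DESeq2 adjusted p 8.77e-104), and AURKA, a mitotic kinase, 1671, 1688 and 1683 at the medium dose and 895, 859 and 936 after the high dose (log2 fold change -0.91 with SE 0.0517, DESeq2 adjusted p 6.66e-67). MKI67, the proliferation antigen, read 3925, 3758 and 3890 at the medium dose and 2244, 1917 and 2033 after the high dose (log2 fold change -0.90 with SE 0.0435, DESeq2 adjusted p 1.12e-93). CCNA2, cyclin A2, fell, with a log2 fold change of -0.78 (SE 0.0571). The 3 high dose libraries of each of these genes lay below the lowest medium dose library. Of 37 replication genes 3 fell, MCM10, MCM3 and RRM2, at -0.74 (SE 0.0927), -0.68 (SE 0.0435) and -0.62 (SE 0.0396). That share, 8.11%, stood beside 5.61% called lower and 10.2% called either way over all tested genes. Of the 37, 34 had negative log2 fold changes and 3 positive ones, with a median of -0.27. Of 16 histone genes 4 fell (25.0%), with a median of -0.67, and their low counts and near-identical copies made each call uncertain. Leaving out single libraries ended the calls of H2AC11 (-0.68 without high replicate 2), H2BC21 (between -0.67 and -0.61 without high replicate 1, high replicate 2 or medium replicate 2) and H2BC5 (between -0.85 and -0.68 without high replicate 3, medium replicate 2 or medium replicate 3). In the E2F family E2F8 fell, at -1.08 (SE 0.172), and E2F7 rose, at 3326, 3286 and 3377 at the medium dose and 7059, 7328 and 7259 after the high dose (log2 fold change 1.12 with SE 0.0323, DESeq2 adjusted p 7.00e-259). CDKN2C, the CDK inhibitor p18, fell, with a log2 fold change of -1.27 (SE 0.0627), with 20.4% of its exon bases opposite another gene.

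The cell cycle homology region, or CHR, is a short element, TTTGAA, through which mitotic genes are known to be repressed in resting cells. On either strand these letters were in 9.93% of the 11573 promoters, in 15.4% of those of genes called lower and in 7.87% of those of genes called higher. They were in 21 of 30 mitotic promoters (70.0%) and in 1 of 32 replication promoters (3.12%). Stretches of MKI67, SPC25 and CDCA8 are shown as examples among called mitotic genes, at chr10:128126428-128126507 (minus strand), chr2:168890601-168890680 (minus strand) and chr1:37692456-37692535 (plus strand), with the matches in capitals.
MKI67: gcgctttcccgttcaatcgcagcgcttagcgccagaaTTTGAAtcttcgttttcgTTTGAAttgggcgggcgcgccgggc
SPC25: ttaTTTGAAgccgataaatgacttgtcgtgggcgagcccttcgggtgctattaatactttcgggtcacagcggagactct
CDCA8: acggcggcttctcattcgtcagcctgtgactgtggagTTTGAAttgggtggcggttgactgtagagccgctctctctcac
MKI67 held 2 matches close to the start site, CDCA8 held 1, and SPC25 held a further match outside the stretch shown. SPC25, a kinetochore subunit, and CDCA8, a subunit of the chromosomal passenger complex, are named for their promoters and fell, with log2 fold changes of -0.74 (SE 0.17) and -0.73 (SE 0.0636).

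BMP and TGF-beta response genes were 5 higher and 11 lower of 29 tested (55.2%, beside 10.2% of all tested genes). Their median was -0.35. TGFB3 and ID2 are described among the largest falls. BMP4, a ligand, read 150, 144 and 151 at the medium dose and 33.6, 48.7 and 39.3 after the high dose (log2 fold change -1.85 with SE 0.182, DESeq2 adjusted p 6.45e-23), with 16.3% of its exon bases opposite another gene. ID1, a classical BMP target, read 6274, 5345 and 5705 at the medium dose and 2725, 2671 and 3047 after the high dose (log2 fold change -1.04 with SE 0.101, DESeq2 adjusted p 3.62e-23). The rises included KCP, at 64.9, 46.6 and 70.7 at the medium dose and 299, 350 and 340 after the high dose (log2 fold change 2.45 with SE 0.2, DESeq2 adjusted p 6.04e-33).

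Collagens and fibrillar matrix genes were 0 higher and 8 lower of 26 tested by the DESeq2 call (30.8%, beside 10.2% of all tested genes). Their median was -0.31. COL1A1, the main chain of collagen I, read 52459, 53685 and 49632 at the medium dose and 17349, 16161 and 16168 after the high dose (log2 fold change -1.65 with SE 0.0355, DESeq2 adjusted p below the range the software can write), and COL1A2, its partner chain, 32932, 32582 and 29609 at the medium dose and 12425, 11595 and 11301 after the high dose (log2 fold change -1.43 with SE 0.0523, DESeq2 adjusted p 5.50e-162). COL5A1 and COL3A1 fell, with log2 fold changes of -1.30 (SE 0.0297) and -1.04 (SE 0.0821). FN1, fibronectin, was not called, at 114731, 117022 and 113474 at the medium dose and 110702, 109014 and 107633 after the high dose (-0.08). THBS1, a matrix glycoprotein picked after its values were seen, read 30668, 31031 and 29135 at the medium dose and 10420, 9253 and 9265 after the high dose (log2 fold change -1.65 with SE 0.0379, DESeq2 adjusted p below the range the software can write). Among matrix proteases and inhibitors ADAMTS1 and MMP1 rose, by 0.89 (SE 0.0548) and 0.71 (SE 0.0573), and 23 of 25 were not called. The share called was 8.0%, beside 10.2% of all tested genes. In the CCN family and YAP targets 3 of 20 fell (15.0% called, beside 10.2% of all tested genes). CCN4, a Wnt-induced secreted protein, read 146, 158 and 135 at the medium dose and 24.3, 26.1 and 33.7 after the high dose (log2 fold change -2.38 with SE 0.202, DESeq2 adjusted p 2.03e-30), while CCN1 and CCN2 did not pass 1.5-fold (0.22 and -0.34), the latter with 11.9% of its exon bases opposite another gene.

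Of 28 semaphorins, plexins, ephrins and Eph receptors 5 fell and 0 rose by the DESeq2 call, led by the semaphorin receptor PLXNA4 at 555, 506 and 483 at the medium dose and 219, 226 and 196 after the high dose (log2 fold change -1.27 with SE 0.0931, DESeq2 adjusted p 1.92e-40). In the Wnt list the receptors FZD2 and FZD4 fell and FZD5 rose, at -0.95 (SE 0.0895), -0.82 (SE 0.133) and 0.80 (SE 0.169), and 23 of 26 genes were not called. The share called, 11.5%, was near the 10.2% of all tested genes, while the semaphorin to Eph receptor list had 17.9%. The Wnt list had 19 negative and 7 positive log2 fold changes, with a median of -0.30. Opposite-strand genes overlapped 18.9% of the exons of FZD4 and 11.4% of those of the sodium channel SCN9A. Among secreted stress and growth factors 6 of 19 rose (31.6%, beside 4.58% of all tested genes called higher), with GDF15 the largest. ADM2, an ATF4-dependent peptide hormone, read 345, 389 and 404 at the medium dose and 736, 742 and 739 after the high dose (log2 fold change 0.96 with SE 0.103, DESeq2 adjusted p 1.61e-19). FGF21 stayed under 2 normalised counts in each of the 6 libraries. 

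Of 21 genes of calcium pumps, IP3 receptors and store-operated entry 3 were called (14.3%, beside 10.2% of all tested genes). ATP2A3, an ER calcium pump, rose from 154, 171 and 179 to 344, 350 and 381 (log2 fold change 1.09 with SE 0.138, DESeq2 adjusted p 3.63e-14), the plasma membrane pump ATP2B1 rose by 0.70 (SE 0.0255), and its relative ATP2B4 fell, with a log2 fold change of -0.63 (SE 0.0321). Aconite alkaloids are known for acting on voltage-gated sodium channels. Of 15 tested voltage-gated sodium and calcium channel genes 0 were called by DESeq2 and 1 by edgeR, and 6 had an unadjusted DESeq2 p under 0.05. SCN9A, a sodium channel, read 129, 169 and 140 at the medium dose and 112, 95.5 and 88.9 after the high dose, a log2 fold change of -0.57 (SE 0.186). CACNA1C, a calcium channel, read 667, 606 and 650 at the medium dose and 611, 524 and 558 after the high dose, at -0.18 (SE 0.0769). Some other genes named in the study's docking work, CHRM4, RPE65, CACNA1B, CACNA1E and GRIK4, had low counts. CHRM4 did not exceed 5.79 normalised counts in any of the 6 libraries, RPE65 2.83 and CACNA1B 1.16, and CACNA1E had 0 counts in all 6. GRIK4 read 16.2, 17.7 and 10.4 at the medium dose and 9.26, 5.41 and 11.2 after the high dose (log2 fold change -0.78 with SE 0.512, DESeq2 adjusted p 0.232), with overlapping groups.

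Markers of cell types moved in both directions. SLC1A3, a glutamate transporter of astrocytes, read 358, 377 and 341 at the medium dose and 127, 122 and 130 after the high dose (log2 fold change -1.51 with SE 0.111, DESeq2 adjusted p 2.12e-40), and NES, the progenitor filament nestin, 130, 124 and 132 at the medium dose and 60.2, 73 and 60.8 after the high dose (log2 fold change -0.99 with SE 0.167, DESeq2 adjusted p 2.75e-08). PDGFRA had a log2 fold change of -0.63 (SE 0.106), or -0.53 without high replicate 3, which ended its call. OLIG2, a factor of glial progenitors, rose from 3.48, 7.46 and 6.6 to 27.8, 24.3 and 21.5 (log2 fold change 2.05 with SE 0.607, DESeq2 adjusted p 0.00262). Its medium dose counts were low, and such a gene can pass the count filter through its high dose libraries. Together the 16 listed astrocyte and glioma markers took 0.743% to 0.774% of counts in medium dose libraries and 0.753% to 0.757% in high dose libraries. VIM alone held most of this sum, which therefore says little of scarcer markers such as SLC1A3, NES and OLIG2. Among neuronal markers SNAP25 and TUBB3 fell, with log2 fold changes of -1.22 (SE 0.105) and -1.12 (SE 0.0621), and MAP2 rose by 0.79 (SE 0.121). Of 7 leukocyte markers PTPRC and CSF1R fell, at -1.07 (SE 0.156) and -0.93 (SE 0.255), and AIF1 had 0 counts in all 6 libraries. Leukocyte markers together took 0.0158% to 0.0185% of counts in medium dose libraries and 0.0181% to 0.0193% in high dose libraries, and CD68, which many other cells express, read 3202, 3489 and 3783 at the medium dose and 3892, 3841 and 4128 after the high dose. Of 3 tested oligodendrocyte and 3 tested endothelial markers DESeq2 called 0 and edgeR 0 and 1, and 2 and 0 had an unadjusted DESeq2 p under 0.05. What part of these marker shifts lies in the makeup of the cultures was not tested.

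The mitochondrial rRNAs took a smaller share of counts at the high dose and the mitochondrial mRNAs together a larger one. Single mRNAs went both ways, 9 with positive and 4 with negative log2 fold changes. The 2 ribosomal RNAs took 7.76%, 8.05% and 7.67% of counts at the medium dose (7.83% ± 0.199, SD, n = 3) and 5.96%, 5.76% and 6.06% at the high dose (5.93% ± 0.150). The difference of -1.90 percentage points gave p = 0.1 in a two-sided exact permutation test, the smallest p that 3 against 3 allow, and no high dose library reached the lowest medium dose one. With vehicle the share was 0.932% ± 0.0251. MT-RNR1 read 297552, 319246 and 303809 at the medium dose and 273843, 267558 and 277897 after the high dose (log2 fold change -0.17 with SE 0.0513, DESeq2 adjusted p 0.00356), and MT-RNR2 1399889, 1450734 and 1363666 at the medium dose and 1034681, 988874 and 1052622 after the high dose (log2 fold change -0.45 with SE 0.0463, DESeq2 adjusted p 2.23e-21), and neither passed 1.5-fold. Both have nuclear copies that could share their reads. The 13 mitochondrial mRNAs took 2.83% ± 0.058 of counts in medium dose libraries and 3.26% ± 0.0527 in high dose libraries, a difference of 0.435 points (p = 0.1, exact permutation test). DESeq2 and edgeR called 0 of the 13 mRNAs, and 8 had an unadjusted DESeq2 p under 0.05. MT-ND4 read 67347, 63890 and 69230 at the medium dose and 93203, 89698 and 87041 after the high dose (log2 fold change 0.43 with SE 0.0908, DESeq2 adjusted p 1.24e-05) and MT-CO3 51855, 52741 and 55233 at the medium dose and 69920, 71932 and 73987 after the high dose (log2 fold change 0.43 with SE 0.0502, DESeq2 adjusted p 8.66e-17), while MT-CYB read 67234, 66110 and 66852 at the medium dose and 63501, 59597 and 60139 after the high dose (-0.13) and MT-ND6, the single mRNA of the other strand, 5207, 5226 and 5257 at the medium dose and 5226, 5189 and 4865 after the high dose (-0.04). MT-ND4, MT-CO3, MT-CYB and MT-ND6 are named after their values were seen. Whether the libraries were made from poly(A)-selected RNA, which bears on how rRNA is sampled, is not given in the sources used here. Among nuclear genes of the respiratory chain 1 of 38 was called, ATP5MC3, which fell, with a log2 fold change of -0.80 (SE 0.156), and 0 of 41 cytosolic ribosomal protein genes and 0 of 33 proteasome genes were called by DESeq2 or edgeR, with 13 and 15 of them at an unadjusted DESeq2 p under 0.05. In the aryl hydrocarbon receptor pathway 0 of 8 genes were called by either tool, with 5 at such a p. Of 30 DNA repair genes 1 fell (3.33%), and 22 had negative and 8 positive log2 fold changes, with a median of -0.16. Of 15 SNHG and other host transcripts of small nucleolar RNAs 2 rose (13.3%, near the 10.2% of all tested genes called). All 15 had positive log2 fold changes, with a median of 0.36, and 13 had an unadjusted DESeq2 p under 0.05.

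**Figure D4:**
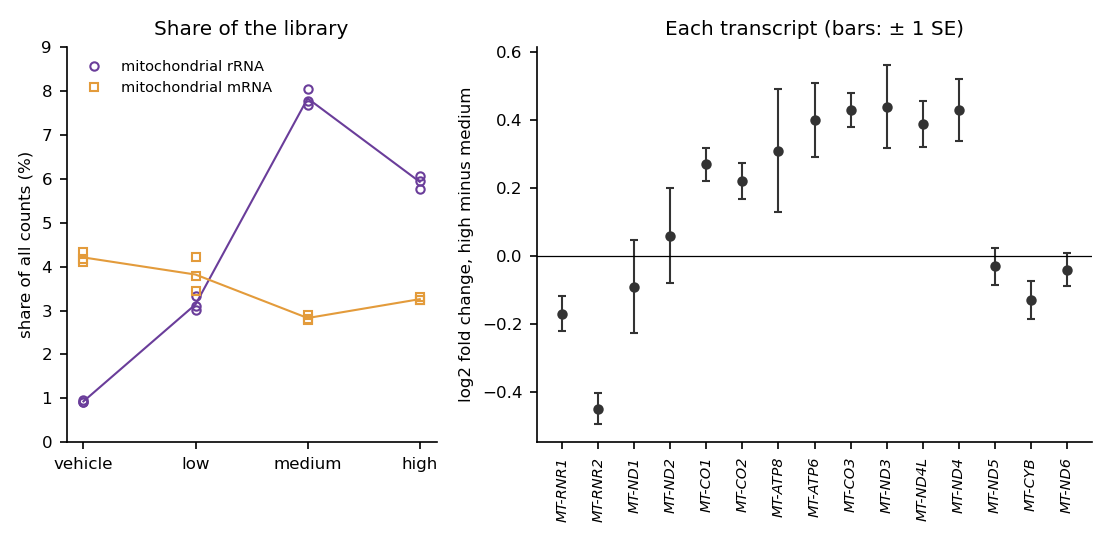
Left, share of all counts (%) on the 2 mitochondrial rRNAs (circles) and the 13 mitochondrial mRNAs (squares) in each library of the 4 groups, with lines through group means. Right, log2 fold change of the high against the medium dose for each transcript in genome order except MT-ND6, placed last, with bars of 1 SE. The rRNA share falls from 7.83% to 5.93% between the medium and the high dose, and 9 of the 13 mRNAs have positive log2 fold changes.

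Since 20, 100 and 500 µg/mL are equal steps on a log scale, the step from medium to high could be tested against the step from low to medium in 1 contrast of the same model. Both steps contain the medium dose libraries, so they are not independent. The steps differed in 558 of 13484 genes (4.14%), by more than 1.5-fold at an adjusted p under 0.05. The upper step was the larger in size in 516 of them, 226 upwards and 290 downwards, and the lower step in 42, of which 34 went up at the lower step and 8 down. CXCL8 changed by 1.17 from low to medium and by 3.50 from medium to high (difference of steps 2.33, SE 0.201, DESeq2 adjusted p 1.34e-28). PLIN2 changed by 0.61 and then 2.47 (difference of steps 1.85, SE 0.0719, DESeq2 adjusted p 1.11e-142). CYP24A1 changed by 0.04 and then -2.46 (difference of steps -2.50, SE 0.198, DESeq2 adjusted p 3.66e-34). TNS1, a focal adhesion protein, changed by 0.11 and then -1.69, and JPH2, a junctophilin, by 0.29 and then -1.66. In these genes the change was concentrated between 100 and 500 µg/mL.

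The opposite shape, a larger lower step, was seen in CHAC1, at 2.17 and then 0.07 (difference of steps -2.11, SE 0.177, DESeq2 adjusted p 2.51e-30), and in MT-RNR1, at 1.83 and then -0.17 (DESeq2 adjusted p 1.14e-108 for the difference of steps). TRIB3 and ADM2 also rose more at the lower step, by 2.30 and 2.34 against 1.47 and 0.96, although both rose at each step (difference of steps -0.83, SE 0.0784, DESeq2 adjusted p 7.96e-24 for TRIB3 and -1.38 for ADM2). GDF15 rose by 2.79 and 3.08, and KCP by 2.28 and 2.45, and neither pair of steps differed by the rule used. ATF3, by contrast, rose by 1.60 and then 2.86 (difference of steps 1.26, SE 0.249, DESeq2 adjusted p 1.07e-05). Targets of ATF4 thus had different shapes across the same doses, with the larger step at the top for ATF3 and at the bottom for CHAC1 and TRIB3.

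Part of the genes called between the 2 upper doses had been close to vehicle at the medium dose, a smaller share than of all tested genes. An equivalence test in DESeq2 placed the medium dose within 1.5-fold of vehicle for 697 of the 1679 called genes (41.5%), 302 that rose and 395 that fell, against 10839 of all 16467 tested genes (65.8%). ABCA1 had 1311 ± 16.9 with vehicle, then 1762 ± 64.6 at 100 µg/mL and 7420 ± 128 at 500 µg/mL. CDKN1A had 449 ± 13.5, 396 ± 18.5 and 1216 ± 36.4 in the same order. KLF11, a zinc finger repressor, had 110 ± 8.47, 128 ± 1.73 and 472 ± 4.61. Among falling genes, CYP24A1 had 391 ± 25.2, 408 ± 25.9 and 74.2 ± 5.49, ARSI, an arylsulfatase, 219 ± 8.06, 215 ± 8.78 and 60.3 ± 2.39, and ST6GALNAC5, a sialyltransferase, 252 ± 2.75, 228 ± 3.13 and 65 ± 4.31 (all mean ± SD, n = 3). 

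In 14 genes the medium dose lay beyond both vehicle and the high dose, with opposite calls on the 2 sides and no overlap of libraries. These calls share the medium dose libraries, so the count is a description. The medium dose was the lowest of the 3 in 5 genes and the highest in 9. TXNIP, a glucose-responsive inhibitor of thioredoxin, averaged 177 ± 10.6 with vehicle, then 53 ± 12 at 100 µg/mL and 136 ± 24.4 at 500 µg/mL. DDIT4L, an inhibitor of mTOR signalling, averaged 304 ± 30.8, 162 ± 8.07 and 255 ± 13.2. In the other direction KRT81, a hair keratin with close paralogues that can share its reads, averaged 2591 ± 103, 4765 ± 155 and 2680 ± 83.7. KRT7-AS, an antisense transcript that overlaps the keratin 7 gene and cannot be told from it if strand was not used, averaged 164 ± 4.45, 271 ± 21 and 143 ± 8.87. This count rests on single libraries. Without vehicle replicate 1, vehicle replicate 2 or high replicate 3 it was 7, 8 or 9.

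**Figure D5:**
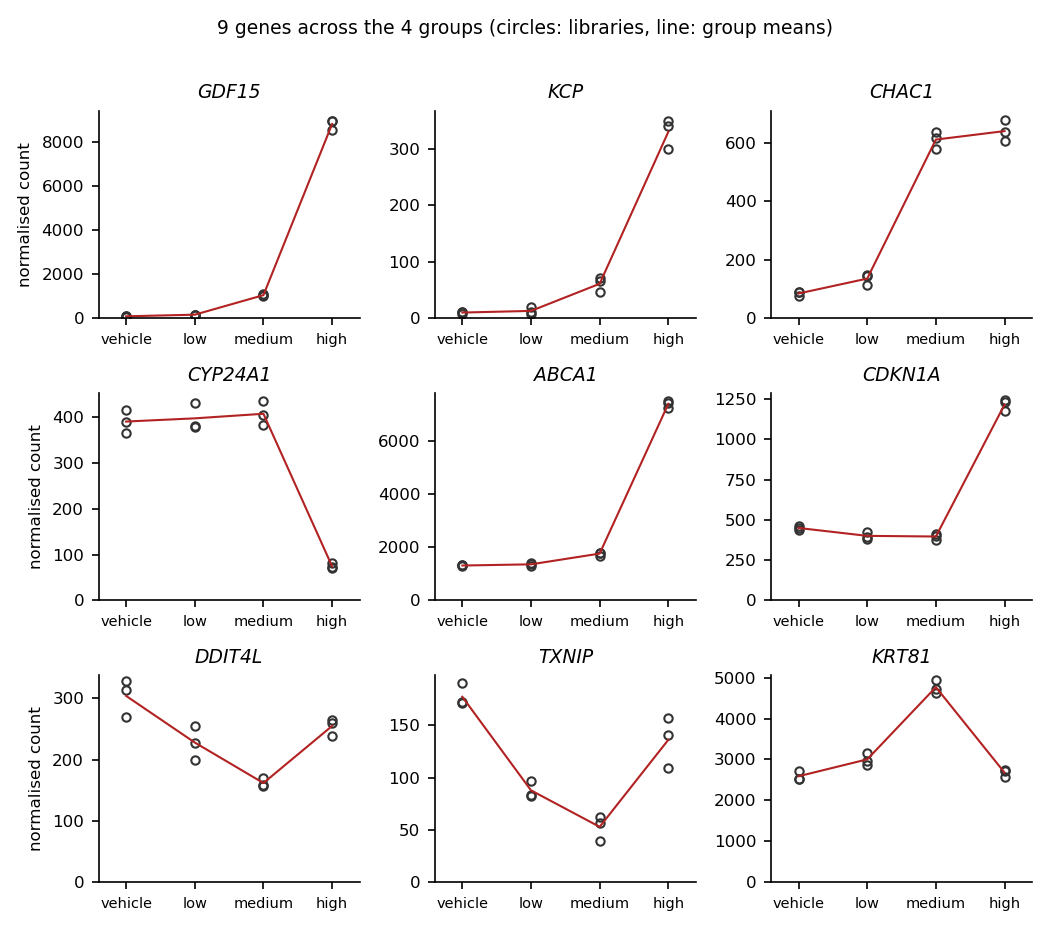
Normalised counts (vertical axes, each from 0) of 9 genes in the 12 libraries, grouped as vehicle, low, medium and high dose. Circles are libraries and lines join group means of 3. GDF15 and KCP climb at each step above the low dose, CHAC1 levels off at the medium dose, CYP24A1, ABCA1 and CDKN1A change mainly at the high dose, and the medium dose is the lowest group for DDIT4L and TXNIP and the highest for KRT81.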

How the data were processed

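RNA from SW1783 cells was sequenced from MGIEasy RNA Directional libraries. The authors trimmed the reads, aligned them to GRCh38 with STAR 2.7.3a and deposited RSEM 1.3.3 expected counts per Ensembl gene, unscaled for depth (versions per the submitters' processing notes; the strand setting of the counting is not given in the sources used here). Here the expected counts, 8.75% of which were not whole, were rounded. Groups came from the dose labels. DESeq2 1.42.0 in R 4.3.3 was fitted to all 12 libraries with group as the single term, and high minus medium was tested by the Wald test with Benjamini-Hochberg adjustment and independent filtering, which removed genes with a mean under 5.77. A gene was called at an adjusted p under 0.05 and a fold change over 1.5. Normalised counts were obtained by dividing each library by its DESeq2 size factor. Coordinates are those of GENCODE on GRCh38. The fit was tested on simulated data.

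Step, equivalence and medium-dose-extreme patterns used contrasts of the same fit. Named genes were the 12 largest rises and 12 largest falls among called genes with a mean of at least 100 and no overlap, the 5 largest in each direction of each dose pattern with that mean, the 4 largest called members of each of 48 lists with a mean of at least 10, the study's docking genes, and uncalled list members given by value; others are said to be chosen after their values were seen. Some genes that this rule names are not reported here. Members and lists were chosen with earlier results of these data known. Total counts per library ran from 18863863 to 24200576, and the median SE of a log2 fold change was 0.0698 for genes with a mean of at least 100. Alternatives included edgeR 4.0.16, other normalisations, filters and thresholds, a replicate term and leaving out each library.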

Additional observations from a re-analysis of the deposited data

How the results depend on the processing

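The count of 1679 genes, and its 755 higher and 924 lower genes, rose to 6738, 3477 and 3261 with no fold threshold and fell to 480, 242 and 238 when the Wald test was run against that threshold. With genes that have no opposite-strand overlap alone, of which 9700 were tested, they were 1012, 449 and 563. That alternative has fewer genes by construction. The count of genes whose steps differed was 2201 with no fold threshold and 328 with no opposite-strand overlap, and the count held near vehicle was 433 in the latter. The 14 genes with an extreme medium dose became 277 with no fold threshold, 2 against the threshold, 22 with edgeR, 9 with the replicate block and 8 with no opposite-strand overlap. Leaving out 1 library gave 1459 to 1636 called genes (678 to 747 higher, 781 to 893 lower), 448 to 544 differing steps, 603 to 739 genes held near vehicle, 7 to 13 with an extreme medium dose and rRNA share differences of -1.98 to -1.79 points. edgeR called 2035 genes, of which 1667 were among the 1679. Centring fold changes on their median, an alternative chosen after seeing the data, gave 1681 genes (771 higher, 910 lower).

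Replicate numbers paired the medium and high dose samples only in part by the check used. Same-numbered libraries correlated at 0.205, 0.0733 and 0.384, but high dose library 2 correlated best with medium dose library 1 (0.162). Some shared structure by replicate number is thus possible, and the main fit had no replicate term. Same-numbered low and medium dose libraries, which the step comparison also uses, correlated at 0.21, 0.179 and 0.36, so that their numbers did pair them by the same check. With the replicate block the steps differed in 473 genes, 1538 genes were called between the doses, 1530 of them shared, and the rRNA share difference was -1.90 points (p = 0.25, exact permutation test, the smallest 3 pairs allow). Values of the named genes were compared over the alternatives, except no fold threshold, the Wald test against it and filtering tuned at 0.1. Values without an adjusted p were also left out. Of those compared, 3754 kept their direction and their call or lack of one, and 0 reversed. A further 23 lost their call (ATF4, BMAL1, EPHB3, H2AC11, H2BC21, H2BC5, HPGD, PDGFRA, PDK4 and PTGER2). Another 7 gained one (MDM2, NFKBIA and SCN9A). Over all genes, the Wald test against the threshold, the strictest alternative, kept 479 of the 1679 calls. Low counts limit genes such as CSF2 and HRK.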
